A study of Mus musculus with 9 samples.

Results

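The G1 cell cycle machinery described here comprises 9 genes: the D-type cyclins Ccnd1, Ccnd2 and Ccnd3, the E-type cyclins Ccne1 and Ccne2, the kinases Cdk4 and Cdk6, and the kinase inhibitors Cdkn1b and Cdkn2c. They were taken by name, as the probe sets that the array annotation assigns to that single gene symbol, with the brightest kept where a gene had several. All 9 were measured, among 19938 genes with a probe set of their own. The rule used their names and not their values, but the members were chosen with earlier results of these data known.

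The samples were mouse pluripotent stem cells on 9 single-colour Affymetrix arrays, with 3 arrays per culture. Epiblast stem cells (EpiSCs) of strain CD1, the counterpart of the primed epiblast after implantation, were kept either with CHIR99021 (3 µM) and XAV939 (2 µM) or with the growth factors FGF2 and activin (10 ng/ml of each). Embryonic stem cells (ESCs) of strain 129, the counterpart of the naive epiblast before implantation, were kept in 2i, which by the common meaning of the name is CHIR99021 (3 µM) with PD0325901 (1 µM). CHIR99021 inhibits GSK3 and so stabilises beta-catenin, XAV939 inhibits tankyrase and so stabilises Axin, and PD0325901 inhibits MEK and so blocks ERK signalling. The labels list these agents and doses for all samples together, and the medium of all groups held 10% fetal bovine serum. Strain and the MEK inhibitor both go with cell type, so their parts in any difference from 2i ESCs cannot be told apart from that of cell state. Whether replicate arrays were independent cultures is not stated in the labels, so the p-values measure the spread between arrays, which may be technical.

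In G1 phase, D-type cyclins bind CDK4 or CDK6 and phosphorylate the retinoblastoma (Rb) family of proteins, which releases E2F transcription factors. E2F factors then raise the transcription of DNA replication genes and of the E-type cyclins, which bind CDK2 and complete Rb phosphorylation. The INK4 protein p18, the product of Cdkn2c, binds CDK4 and CDK6, and p27, the product of Cdkn1b, binds cyclin-CDK complexes and above all inhibits cyclin E-CDK2. Mouse ESCs are known for a short G1 phase, low D-type cyclin levels and high cyclin E-CDK2 activity. Much of the control of these proteins lies in phosphorylation and degradation, which mRNA levels do not show.

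Promoter windows from RefSeq (GRCm38.p6), the 250 bases before each annotated start, were matched for 6 members, all but Ccnd1, Ccnd2 and Ccne2. They were searched on both strands for the E-box CACGTG, the core word bound by Myc-Max dimers, for the E2F-type words TTTCCCG or TTTCGCG or TTTGCCG or TTTGGCG, and for the TCF-type words CTTTGAA or CTTTGAT or CTTTGTA or CTTTGTT. The E-box search was added after the promoters were seen, and the 3 kinds of word do not overlap in the windows shown. Among all 32851 promoter windows, 6.02% held the E-box, 5.51% an E2F-type word and 14.8% a TCF-type word. Of the 8 windows of members, 2 held the E-box, 1 an E2F-type word and 1 a TCF-type word. Windows not printed, of Ccnd3, Cdkn1b and the second Cdkn2c start, held none of the words. The 4 windows below are of members whose levels are contrasted later: both kinases, the cyclin with the largest fall and the inhibitor with the largest fall. Each is given 5′ to 3′ on the strand of its gene, with matched words in capitals. Cdk4 lies at chr10:127063285-127063534 on the plus strand, Cdk6 at chr5:3343643-3343892 on the plus strand, Ccne1 at chr7:38107491-38107740 on the minus strand, and 1 of the 2 Cdkn2c windows at chr4:109665373-109665622 on the minus strand.
Cdk4: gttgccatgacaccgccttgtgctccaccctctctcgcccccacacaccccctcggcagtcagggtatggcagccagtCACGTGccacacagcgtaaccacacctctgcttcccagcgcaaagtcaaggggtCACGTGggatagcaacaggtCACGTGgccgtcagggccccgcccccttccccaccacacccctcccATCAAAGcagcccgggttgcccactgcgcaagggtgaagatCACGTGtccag
Cdk6: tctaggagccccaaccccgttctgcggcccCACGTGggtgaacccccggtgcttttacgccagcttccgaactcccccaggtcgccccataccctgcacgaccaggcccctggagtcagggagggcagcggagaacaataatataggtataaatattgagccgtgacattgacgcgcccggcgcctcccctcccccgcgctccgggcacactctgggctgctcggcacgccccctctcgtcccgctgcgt
Ccne1: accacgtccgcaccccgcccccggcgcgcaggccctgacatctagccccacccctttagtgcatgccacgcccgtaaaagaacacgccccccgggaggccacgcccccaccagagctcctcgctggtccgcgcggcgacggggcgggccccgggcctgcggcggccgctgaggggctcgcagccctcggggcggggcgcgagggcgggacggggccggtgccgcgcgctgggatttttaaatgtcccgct
Cdkn2c: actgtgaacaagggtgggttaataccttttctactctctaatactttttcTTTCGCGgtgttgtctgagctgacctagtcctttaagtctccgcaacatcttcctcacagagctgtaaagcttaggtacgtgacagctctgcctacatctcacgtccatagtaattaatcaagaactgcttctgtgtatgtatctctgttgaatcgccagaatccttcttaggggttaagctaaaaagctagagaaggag
The Cdk4 window held 4 E-boxes, starting 172, 118, 98 and 11 bases before the annotated start, and the TCF-type word CTTTGAT on the opposite strand, 52 bases before it. The Cdk6 window held 1 E-box, 220 bases before its start. The Cdkn2c window held the E2F-type word TTTCGCG, 200 bases before its start, and the Ccne1 window held none of the words searched. A match is a description of these letters and not evidence of binding.

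Marker genes were checked against the labelled cell states. Of 12 naive ESC markers, all 12 were lower in CHIR/XAV EpiSCs than in 2i ESCs and 11 were lower in FGF2/activin EpiSCs, where Klf5 was higher by 0.17 on the log2 scale. Their mean log2 level was 5.99 to 6.03 on the CHIR/XAV arrays, 5.97 to 6.03 on the FGF2/activin arrays and 9.68 to 9.74 on the 2i arrays. The primed epiblast markers Otx2 and Fgf5 were higher by 3.65 and 3.61 in CHIR/XAV EpiSCs and by 3.95 and 3.63 in FGF2/activin EpiSCs, with 9 of 10 primed markers called higher in each. Among markers of other cells, the trophoblast list averaged 6.24 to 6.35 on the CHIR/XAV arrays, 7.14 to 7.21 on the FGF2/activin arrays and 6.16 to 6.24 on the 2i arrays. Its members were divided. Of its 9 genes, 5 rose and 2 fell in CHIR/XAV EpiSCs against 2i ESCs. In FGF2/activin EpiSCs 5 rose and 3 fell, with the keratins Krt18 and Krt8 higher by 3.95 and 3.79. The falls there were of Tfap2c (-1.78), Cdx2 (-0.84) and Elf5 (-0.36). The neural list averaged 6.44 to 6.62 on the CHIR/XAV arrays, 6.47 to 6.62 on the FGF2/activin arrays and 5.77 to 5.86 on the 2i arrays. Of its 9 measured genes, 4 rose and 2 fell in CHIR/XAV EpiSCs against 2i ESCs, with a median difference of 0.11. In FGF2/activin EpiSCs 4 rose and 3 fell, with a median of 0.02. These comparisons called 46.7% and 61.3% of all genes. Fibroblast markers, which would mark feeder cells, averaged 5.73 to 5.80 on the CHIR/XAV arrays, 5.74 to 5.76 on the FGF2/activin arrays and 5.59 to 5.63 on the 2i arrays, and mesendoderm markers averaged 5.08 to 5.24 on the CHIR/XAV, 5.21 to 5.31 on the FGF2/activin and 5.13 to 5.19 on the 2i arrays. The part of these other markers in the results below was not tested, and in bulk RNA fewer cells of a type cannot be told apart from less RNA per cell.

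Values are RMA log2 intensities, on which a difference of 1 is 2-fold. Levels are compared between groups for 1 gene at a time and not between genes, because probe sets differ in brightness. A gene was called changed at a Benjamini-Hochberg adjusted p under 0.05 over all 19938 genes in limma. Both comparisons with 2i ESCs use the same 3 ESC arrays.

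The D-type cyclins went different ways. Ccnd2 was by far the most changed of the 9 genes. Its log2 level was 8.76, 8.68 and 8.79 on the CHIR/XAV EpiSC arrays, 9.17, 9.17 and 9.01 on the FGF2/activin EpiSC arrays, and 7.58, 7.36 and 7.49 on the 2i ESC arrays. The 3 groups did not overlap, with both EpiSC cultures far above ESCs and the FGF2/activin arrays above the CHIR/XAV arrays. Ccnd2 rose by 1.26 ± 0.076 (SE) on the log2 scale in CHIR/XAV EpiSCs, or 2.40-fold (adjusted p = 5.07e-09, limma, n = 3 arrays per group). It rose by 1.64 ± 0.076 in FGF2/activin EpiSCs, or 3.12-fold (adjusted p = 2.16e-10, limma). In these comparisons 94.6% and 95.6% of all genes had a smaller absolute change. Over the alternative settings its difference ran between 1.16 and 1.32 for CHIR/XAV EpiSCs and between 1.47 and 1.69 for FGF2/activin EpiSCs.

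Ccnd1, the D-type cyclin best known as a target of mitogen and beta-catenin signalling, was higher in FGF2/activin EpiSCs than in both other cultures. It measured 10.56, 10.59 and 10.53 on the CHIR/XAV arrays, 10.88, 10.85 and 10.81 on the FGF2/activin arrays, and 10.48, 10.54 and 10.50 on the 2i arrays. The FGF2/activin arrays stood above all 6 others, and the CHIR/XAV and 2i arrays overlapped. The rise in FGF2/activin EpiSCs over 2i ESCs was 0.34 ± 0.061 (SE, adjusted p = 0.000305, limma), and CHIR/XAV EpiSCs were lower than FGF2/activin EpiSCs by 0.28 (log2 difference -0.28, adjusted p = 0.0019, limma). Between CHIR/XAV EpiSCs and 2i ESCs, both kept with CHIR99021, the difference was 0.05 with a 95% interval of -0.08 to 0.185 (adjusted p = 0.501, limma), and its sign turned to -0.05 when each array was centred on its median and to -0.0034 after quantile normalization.

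Ccnd3 was slightly lower in FGF2/activin EpiSCs than in 2i ESCs. Its level was 8.42, 8.32 and 8.19 on the CHIR/XAV arrays, 8.11, 8.34 and 8.15 on the FGF2/activin arrays, and 8.51, 8.52 and 8.39 on the 2i arrays. The FGF2/activin arrays lay below the 2i arrays, whereas the CHIR/XAV arrays overlapped with both other groups. The fall in FGF2/activin EpiSCs was 0.27 (log2 difference -0.27, adjusted p = 0.0113, limma), and without FGF2/activin replicate 1 it was -0.22 with an adjusted p of 0.0553. The difference between CHIR/XAV EpiSCs and 2i ESCs was -0.16, with a 95% interval of -0.34 to 0.015 (adjusted p = 0.126), and with median centring it was -0.26 (adjusted p = 0.0135).

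The E-type cyclins, which share CDK2 as their partner, moved in opposite directions. Ccne1 had log2 levels of 10.67, 10.73 and 10.77 on the CHIR/XAV arrays, 10.10, 10.11 and 10.09 on the FGF2/activin arrays, and 11.06, 10.91 and 11.00 on the 2i arrays. Ccne2 had levels of 8.35, 8.27 and 8.30 on the CHIR/XAV arrays, 8.58, 8.58 and 8.66 on the FGF2/activin arrays, and 7.99, 7.92 and 7.86 on the 2i arrays. For both genes the 3 groups were fully separate, with the CHIR/XAV arrays in between. Ccne1 was highest in 2i ESCs and Ccne2 was highest in FGF2/activin EpiSCs.

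Ccne1 fell by 0.27 ± 0.066 (SE) in CHIR/XAV EpiSCs relative to 2i ESCs (log2 difference -0.27, adjusted p = 0.00384, limma). In FGF2/activin EpiSCs the difference was -0.89, a 1.85-fold lower level (adjusted p = 3.62e-08), and a smaller absolute change was seen for 87.9% of all genes. Ccne2 rose by 0.38 ± 0.065 in CHIR/XAV EpiSCs (adjusted p = 0.00019, limma) and by 0.68 in FGF2/activin EpiSCs, or 1.61-fold (adjusted p = 5.45e-07). Both E-type cyclins remained called in both comparisons with ESCs when any 1 array was left out.

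Of the kinases that pair with D-type cyclins, Cdk6 was higher in EpiSCs and Cdk4 did not pass the test in any of the 3 comparisons in the fit of all 9 arrays without covariates. Cdk6 measured 9.31, 9.41 and 9.60 on the CHIR/XAV arrays, 9.72, 9.74 and 9.57 on the FGF2/activin arrays, and 8.99, 9.12 and 9.07 on the 2i arrays. All 6 EpiSC arrays were above the ESC arrays, and the EpiSC groups overlapped. Cdk6 rose by 0.38 ± 0.082 (SE) in CHIR/XAV EpiSCs (1.30-fold, adjusted p = 0.00146, limma) and by 0.62 in FGF2/activin EpiSCs (1.54-fold, adjusted p = 1.81e-05).

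Cdk4, whose promoter window carries the 4 E-boxes printed above, had levels of 11.58, 11.62 and 11.39 on the CHIR/XAV arrays, 11.59, 11.82 and 11.58 on the FGF2/activin arrays, and 11.49, 11.62 and 11.31 on the 2i arrays. The 3 groups overlapped throughout. The difference from 2i ESCs was 0.05 in CHIR/XAV EpiSCs, with a 95% interval of -0.15 to 0.26 (adjusted p = 0.69, limma), and 0.19 in FGF2/activin EpiSCs, with an interval of -0.02 to 0.39 (adjusted p = 0.102). These intervals hold changes of up to 0.39 log2 units, so a small difference is not excluded. Without 2i replicate 2 the FGF2/activin difference was 0.26 with an adjusted p of 0.0412.

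Both inhibitors were lower in EpiSCs. Cdkn1b had log2 levels of 8.46, 8.58 and 8.44 on the CHIR/XAV arrays, 8.51, 8.53 and 8.46 on the FGF2/activin arrays, and 9.01, 9.12 and 8.82 on the 2i arrays. Every EpiSC array was below every ESC array, and the EpiSC cultures overlapped. Cdkn1b fell by 0.49 in each EpiSC culture relative to 2i ESCs, or 1.40-fold (log2 difference -0.49 in both, adjusted p = 0.00015 for CHIR/XAV and 0.000129 for FGF2/activin, limma). Cdkn1b is the only member with a second probe set, which is dimmer and gave differences of -0.38 and -0.41.

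Cdkn2c measured 5.02, 5.05 and 4.92 on the CHIR/XAV arrays, 4.66, 4.51 and 4.70 on the FGF2/activin arrays, and 5.22, 5.38 and 5.51 on the 2i arrays. The groups were separate, with 2i ESCs highest and FGF2/activin EpiSCs lowest. It fell by 0.38 in CHIR/XAV EpiSCs (log2 difference -0.38, adjusted p = 0.00184, limma) and by 0.75 in FGF2/activin EpiSCs (log2 difference -0.75, 1.68-fold, adjusted p = 2.87e-06). Cdkn2c is the only member among the dimmest 40% of genes, its mean lying above that of 31.5% of genes. Without detection calls such a level cannot be told from background, and its fold changes may be understated.

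**Figure D1:**
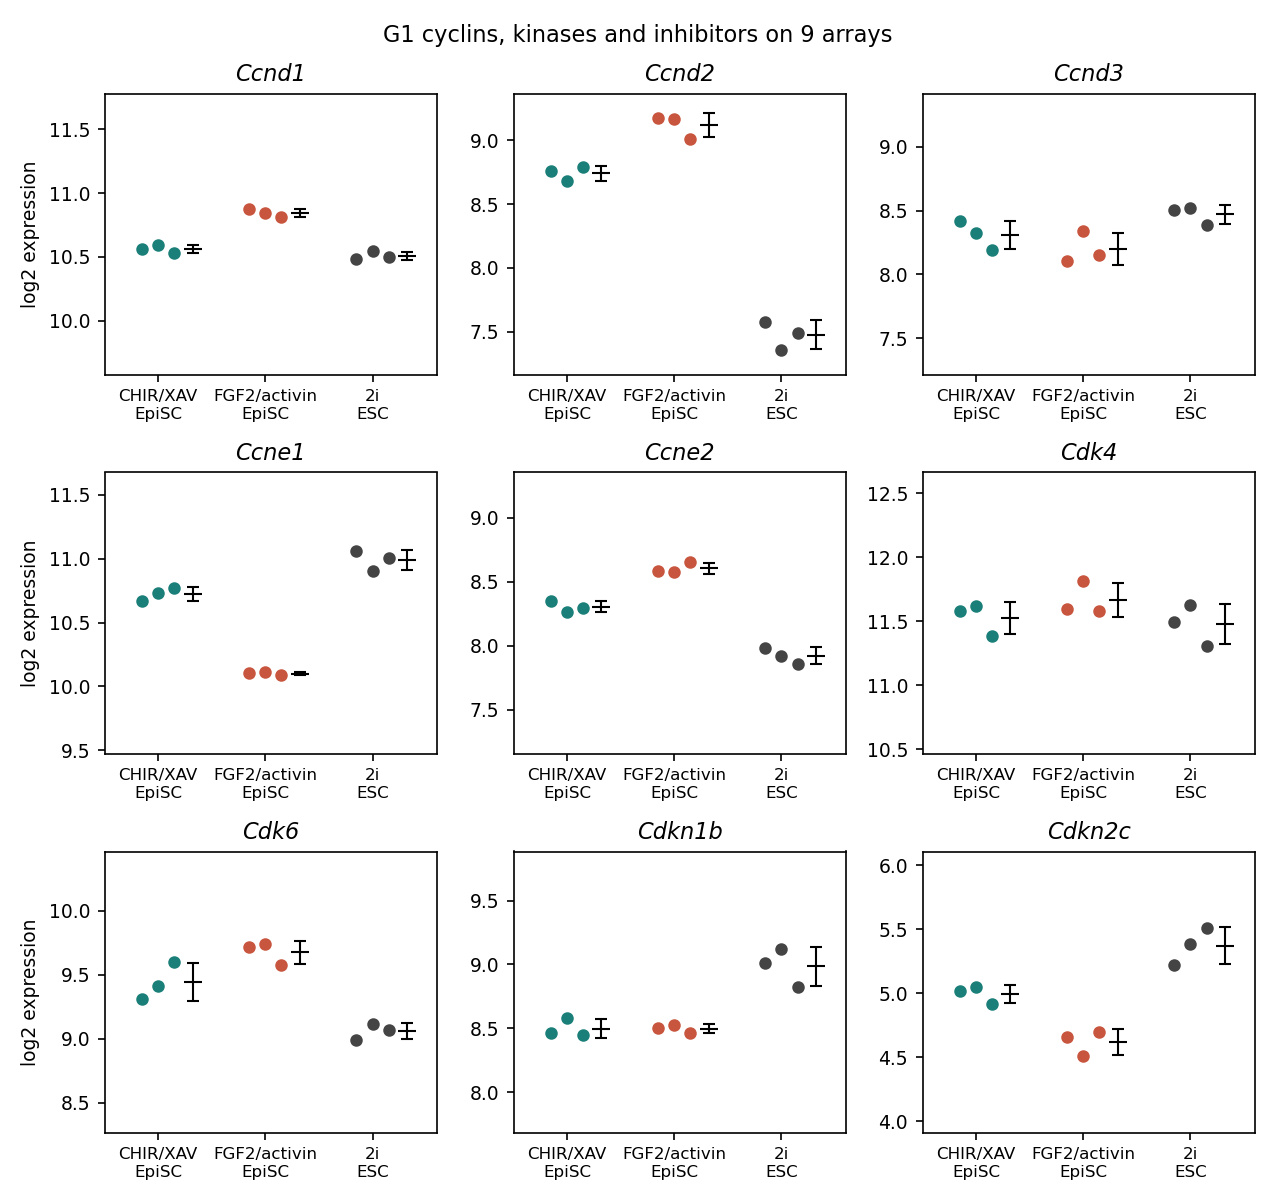
Log2 level of each of the 9 genes (y axis, RMA log2 intensity, each panel spanning the same number of log2 units) on the 3 arrays of each culture (x axis: CHIR/XAV EpiSCs, FGF2/activin EpiSCs, 2i ESCs). Points are arrays and bars are the group mean ± SD. Ccnd2 has the widest gap, with group means of 8.74 in CHIR/XAV EpiSCs, 9.12 in FGF2/activin EpiSCs and 7.48 in 2i ESCs, and Cdk4 overlaps in all 3 groups.

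In CHIR/XAV EpiSCs against 2i ESCs, 6 of the 9 genes were called, against 46.7% of all genes. Ccnd2, Ccne2 and Cdk6 rose and Ccne1, Cdkn1b and Cdkn2c fell. The share of all genes called was 24.7% for rises and 22.1% for falls, and it was 63.1% in total among genes above the dimmest 40%, where 8 of the 9 members lie. The count of members is therefore near the background of genes of such brightness. The same 6 genes had arrays that did not overlap between the groups, as did 53.2% of all genes. The median difference of the 9 genes was 0.05, against -0.03 for all genes and 0.04 for other genes above the dimmest 40%.

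In FGF2/activin EpiSCs against 2i ESCs, 8 of the 9 genes were called, against 61.3% of all genes and 71.0% of genes above the dimmest 40%. Ccnd1, Ccnd2, Ccne2 and Cdk6 rose and Ccnd3, Ccne1, Cdkn1b and Cdkn2c fell. Of all genes, 27.8% rose and 33.5% fell. Arrays of the 2 groups did not overlap for the 8 called members, and for 66.6% of all genes. The median difference was 0.19 for the 9 genes, -0.08 for all genes and 0.09 for other genes above the dimmest 40%. The median absolute difference was 0.62 for the members and 0.26 for all genes. Past 2-fold, only Ccnd2 was called among the members in either comparison with ESCs, where 8.32% of all genes for CHIR/XAV and 10.1% for FGF2/activin were called at that size.

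**Figure D2:**
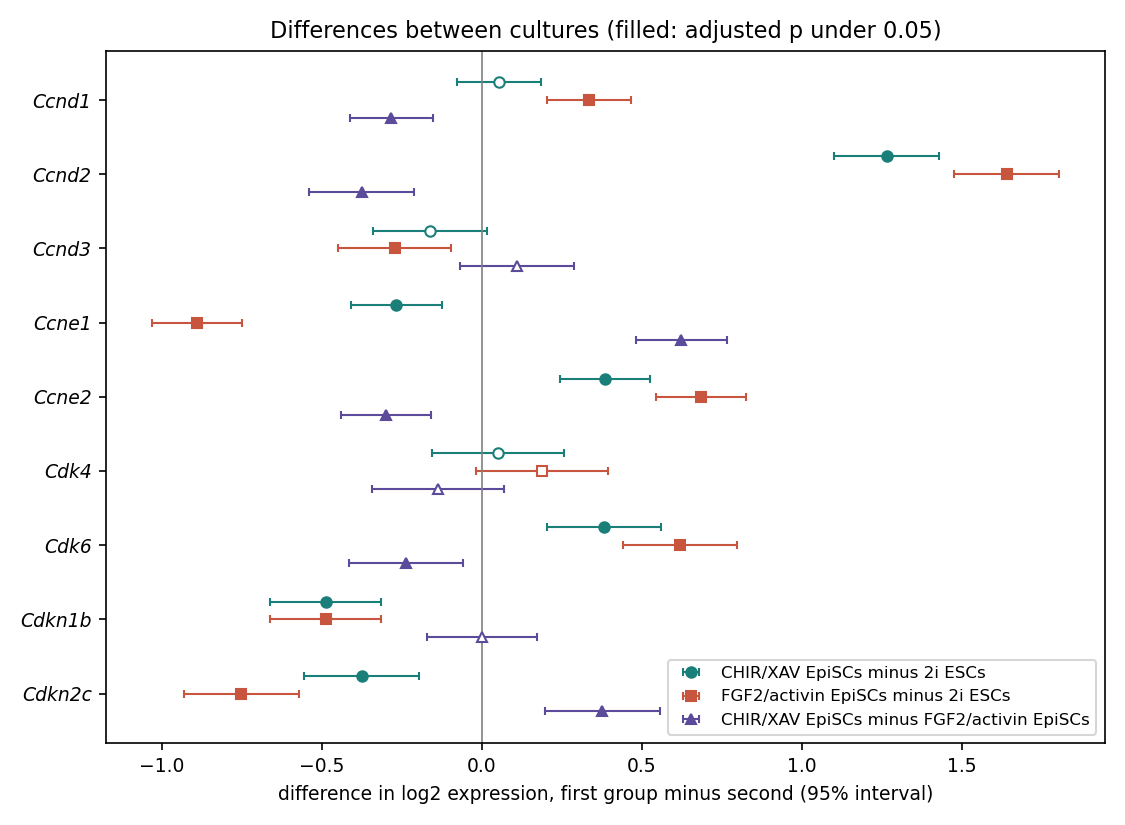
Log2 difference of each of the 9 genes (x axis, log2 units) with its 95% interval in the 3 comparisons: CHIR/XAV EpiSCs minus 2i ESCs, FGF2/activin EpiSCs minus 2i ESCs, and CHIR/XAV EpiSCs minus FGF2/activin EpiSCs. Filled points have an adjusted p under 0.05 in limma and the vertical line marks 0. Ccnd2 stands at 1.26 and 1.64 against 2i ESCs, and the Cdk4 intervals include 0 in all 3 comparisons.

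Both EpiSC cultures carry the same strain and cell type labels and were kept with inhibitors or with growth factors. They also differed outside the cell cycle genes. On chromosome 15, 49 genes from Amigo2 to Atf1, Ccnt1 and dim genes left out, had a median difference of 0.87. Of 9 trophoblast markers, 7 were lower in CHIR/XAV EpiSCs and 0 higher, where 21.1% of all genes were lower and 20.5% higher. The keratins Krt18 and Krt8 had the largest differences of that list, -2.72 and -2.16. The part of such differences in the values below was not tested. In CHIR/XAV EpiSCs against FGF2/activin EpiSCs, 6 of the 9 genes were called, against 41.6% of all genes and 55.1% of genes above the dimmest 40%. Ccne1 and Cdkn2c were higher in CHIR/XAV EpiSCs, and Ccnd1, Ccnd2, Ccne2 and Cdk6 were lower. Ccne1 had the largest difference, 0.62 (SE 0.066, 1.54-fold, adjusted p = 3.42e-06, limma), with a smaller absolute change for 89.6% of all genes. The Cdkn2c difference was 0.38 (adjusted p = 0.00233), that of Ccnd2 was -0.37 (adjusted p = 0.00125) and that of Ccne2 was -0.30 (adjusted p = 0.00195). After quantile normalization the Ccne2 difference was -0.16 (adjusted p = 0.0698), and 3 members were higher and 2 lower. Cdk6 differed by -0.24 (adjusted p = 0.0334) with overlapping arrays, and without CHIR/XAV replicate 1 the difference was -0.17 with an adjusted p of 0.141. Its call was also lost without CHIR/XAV replicate 2 (adjusted p = 0.0909), without FGF2/activin replicate 1 (adjusted p = 0.105) and without FGF2/activin replicate 2 (adjusted p = 0.112).

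The other 3 genes did not pass the test between EpiSC cultures. Cdkn1b differed by 0.0004, with a 95% interval of -0.17 to 0.17 (adjusted p = 0.997, limma), and the sign of that value changed under other settings. Ccnd3 differed by 0.11 (interval -0.07 to 0.29) and Cdk4 by -0.14 (interval -0.34 to 0.07). The median difference of the 9 genes was -0.14, against 0.05 for all genes and -0.04 for other genes above the dimmest 40%. Arrays of the EpiSC cultures did not overlap for 5 members, the called ones other than Cdk6, and for 52.0% of all genes. No member reached 2-fold, a size at which 4.11% of all genes were called.

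For each of the 9 genes the CHIR/XAV mean lay between the means of the other groups, which held for 51.3% of all genes. Ccnd1, Ccnd2, Ccne2, Cdk4 and Cdk6 were highest in FGF2/activin EpiSCs and lowest in 2i ESCs, and Ccnd3, Ccne1, Cdkn1b and Cdkn2c were lowest in FGF2/activin EpiSCs and highest in 2i ESCs. For 5 members, Ccnd2, Ccne1, Ccne2, Cdk6 and Cdkn2c, the CHIR/XAV mean lay in between and all 3 comparisons were called, which held for 10.3% of all genes. For Ccnd1, neighbouring CHIR/XAV and 2i means did not differ beyond their spread. The same held for the CHIR/XAV mean of Ccnd3 against both others, for the EpiSC means of Cdkn1b, and for all means of Cdk4. The 3 comparisons share arrays and no test was made of the order itself. With median centring the CHIR/XAV means of Ccnd1, Cdk4 and Cdkn1b no longer lay between the others.

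The genes lie on 6 chromosomes, and other genes there had median differences near 0. On chromosome 6, which holds Ccnd2 and Cdkn1b, the other genes above the dimmest 40% had a median difference of 0.00 in CHIR/XAV EpiSCs and 0.04 in FGF2/activin EpiSCs relative to 2i ESCs. On chromosome 7, which holds Ccnd1 and Ccne1, the medians were 0.05 and 0.10. Ccnd2 and Cdkn1b moved in opposite directions on chromosome 6, and Ccnd1 and Ccne1 on chromosome 7 did so in FGF2/activin EpiSCs. A median over a whole chromosome does not show a change confined to a short stretch. The genes next to each member were not examined, and any part of such a stretch was not tested.

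The remaining cell cycle genes were described by lists. Against 2i ESCs, 46.7% of all genes were called in CHIR/XAV EpiSCs and 61.3% in FGF2/activin EpiSCs. Among genes above the dimmest 40% these shares were 63.1% and 71.0%. Of 15 partners and regulators of the D-type cyclins and of CDK2, 2 rose and 5 fell in CHIR/XAV EpiSCs. In FGF2/activin EpiSCs 5 rose and 6 fell. The medians were -0.01 and -0.08, against -0.03 and -0.08 for all genes. For other genes above the dimmest 40% they were 0.04 and 0.09. Cks1b, a subunit of the ubiquitin ligase that degrades p27, rose by 0.65 (adjusted p = 1.87e-06) and 0.57 (adjusted p = 6.11e-06). Skp2, the substrate receptor of that ligase, had differences of -0.54 (adjusted p = 7.36e-05) and -0.33 (adjusted p = 0.00329). Cryab and Fbxo4, whose products have been described as a ligase module for cyclin D1, were higher in FGF2/activin EpiSCs than in 2i ESCs by 2.31 (adjusted p = 3.66e-12) and 0.79 (adjusted p = 8.46e-06). Their differences in CHIR/XAV EpiSCs were -0.13 and 0.02, neither called.

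Of 5 other CDK inhibitors measured, 1 rose and 3 fell in CHIR/XAV EpiSCs, with a median of -0.58. In FGF2/activin EpiSCs 1 fell, with a median of 0.05. Of all genes, 46.7% and 61.3% were called in these comparisons. Cdkn2a, the gene of p16 and p19Arf, fell in both, by 0.74 in each (log2 difference -0.74, adjusted p = 5.59e-05 for CHIR/XAV and 4.41e-05 for FGF2/activin, limma). Its means were 4.91 in each EpiSC culture and 5.65 in 2i ESCs, dim levels that cannot be told from background without detection calls. With the dimmest 40% of genes left out, Cdkn2a was not tested. Of the 4 genes of this list that remained, 0 were then called in FGF2/activin EpiSCs. Cdkn1c, the gene of p57, fell by 0.76 in CHIR/XAV EpiSCs (log2 difference -0.76, adjusted p = 1.62e-06) and had a difference of -0.12 in FGF2/activin EpiSCs (adjusted p = 0.177). Cdkn3, a phosphatase that acts on CDKs, had differences of -0.58 (adjusted p = 8.53e-05) and 0.13 (adjusted p = 0.235), and Cdkn2b, the gene of p15, of 0.20 (adjusted p = 0.0454) and 0.14 (adjusted p = 0.12). With median centring, and after quantile normalization, no rise was called in this list in CHIR/XAV EpiSCs.

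Among 13 Rb and E2F family genes, 4 rose and 4 fell in CHIR/XAV EpiSCs and 7 rose and 4 fell in FGF2/activin EpiSCs, where quantile normalization left 3 rises and 3 falls. Rbl2, the gene of the Rb relative p130, had differences of -1.08 (adjusted p = 1.13e-07) and -1.17 (adjusted p = 3.69e-08). E2f1, an activating E2F, had differences of -0.68 and -0.63, and Tfdp2, a dimerisation partner of E2F factors, of -0.81 and -1.22. E2f8, a repressor E2F, was higher by 0.79 (adjusted p = 2.94e-07) and 0.47 (adjusted p = 5.27e-05). Of 7 MuvB complex and B-Myb family genes, 6 fell in CHIR/XAV EpiSCs and 4 in FGF2/activin EpiSCs. Beside the counts of both lists, 63.1% and 71.0% of genes above the dimmest 40% were called in these comparisons. Falls made up 22.1% and 33.5% of all genes. Mybl2, the gene of B-Myb and a known E2F target, had the largest differences of its list, -1.67 (adjusted p = 1.12e-10) and -2.04 (adjusted p = 9.46e-12).

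The lists of replication genes and of mitotic genes had medians of opposite sign between the EpiSC cultures. Of 24 measured E2F targets of the G1/S transition, 17 were higher and 1 lower in CHIR/XAV than in FGF2/activin EpiSCs, where 20.5% of all genes were higher and 21.1% lower. Their median difference was 0.29, against 0.05 for all genes and -0.04 for other genes above the dimmest 40%. With the dimmest 40% left out of the fit, 2888 of 11963 genes were higher and 4117 lower. Of 25 measured S, G2 and M phase cyclins and mitotic genes, 1 was higher and 13 were lower in CHIR/XAV EpiSCs, with a median of -0.20. The other 11 were not called, and quantile normalization left 2 higher and 10 lower. Ccne1, itself a classical E2F target, was among the genes higher in CHIR/XAV EpiSCs, and Ccne2, another E2F target, among those lower.

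The genes named here had the largest called differences of their list over all 3 comparisons, not in this one alone. In the G1/S list, Gins1, a subunit of the replicative helicase, differed by 0.52 (adjusted p = 0.000147, limma) between CHIR/XAV and FGF2/activin EpiSCs. Ung, a uracil DNA glycosylase, differed by 0.35 (adjusted p = 0.00165) and Ticrr, a factor for replication origin firing, by 0.24 (adjusted p = 0.00777). Relative to 2i ESCs both fell in each EpiSC culture, with differences of -0.56 in CHIR/XAV and -0.92 in FGF2/activin EpiSCs for Ung, and -0.88 and -1.12 in those cultures for Ticrr. All 6 genes of the MCM2 to MCM7 helicase ring, a group picked after its values were seen, were higher in CHIR/XAV EpiSCs, by 0.20 to 0.58. Tk1, the gene of thymidine kinase, was the 1 lower gene, at -0.85 (adjusted p = 1.32e-05). Among mitotic genes, Cdc25c and Cdc25b, phosphatases that activate CDK1, differed by -0.62 (adjusted p = 4.06e-05) and -0.41 (adjusted p = 0.00347). Ccnb2, a mitotic cyclin, differed by -0.55 (adjusted p = 1.99e-05), and Bub1, a spindle checkpoint kinase, by -0.25 (adjusted p = 0.00743). Ccna2, the S and G2 phase cyclin A2, was the 1 higher gene of that list, at 0.21 (adjusted p = 0.0254).

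In CHIR/XAV EpiSCs against 2i ESCs, the G1/S list had 5 rises and 5 falls and the mitotic list 3 rises and 5 falls. Of all genes, 24.7% rose and 22.1% fell in that comparison. In FGF2/activin EpiSCs, 2 G1/S genes rose and 15 fell, with a median of -0.28. All genes had a median of -0.08 there, and other genes above the dimmest 40% had 0.09. Of all genes, 27.8% rose and 33.5% fell. With the dimmest 40% left out of the fit, 5176 of 11963 genes rose and 3511 fell. In the same comparison 15 mitotic genes rose and 2 fell, with a median of 0.18. That mitotic count was 9 rises and 2 falls without 2i replicate 3, and 8 rises and 4 falls with median centring. In CHIR/XAV EpiSCs it was 2 rises and 11 falls with median centring and 7 rises and 7 falls with trend and robust variance. The other named cyclins and CDKs, 21 genes, had 7 rises and 5 falls in CHIR/XAV EpiSCs and 11 rises and 1 fall in FGF2/activin EpiSCs. Among genes above the dimmest 40%, 63.1% and 71.0% were called in these comparisons.

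**Figure D3:**
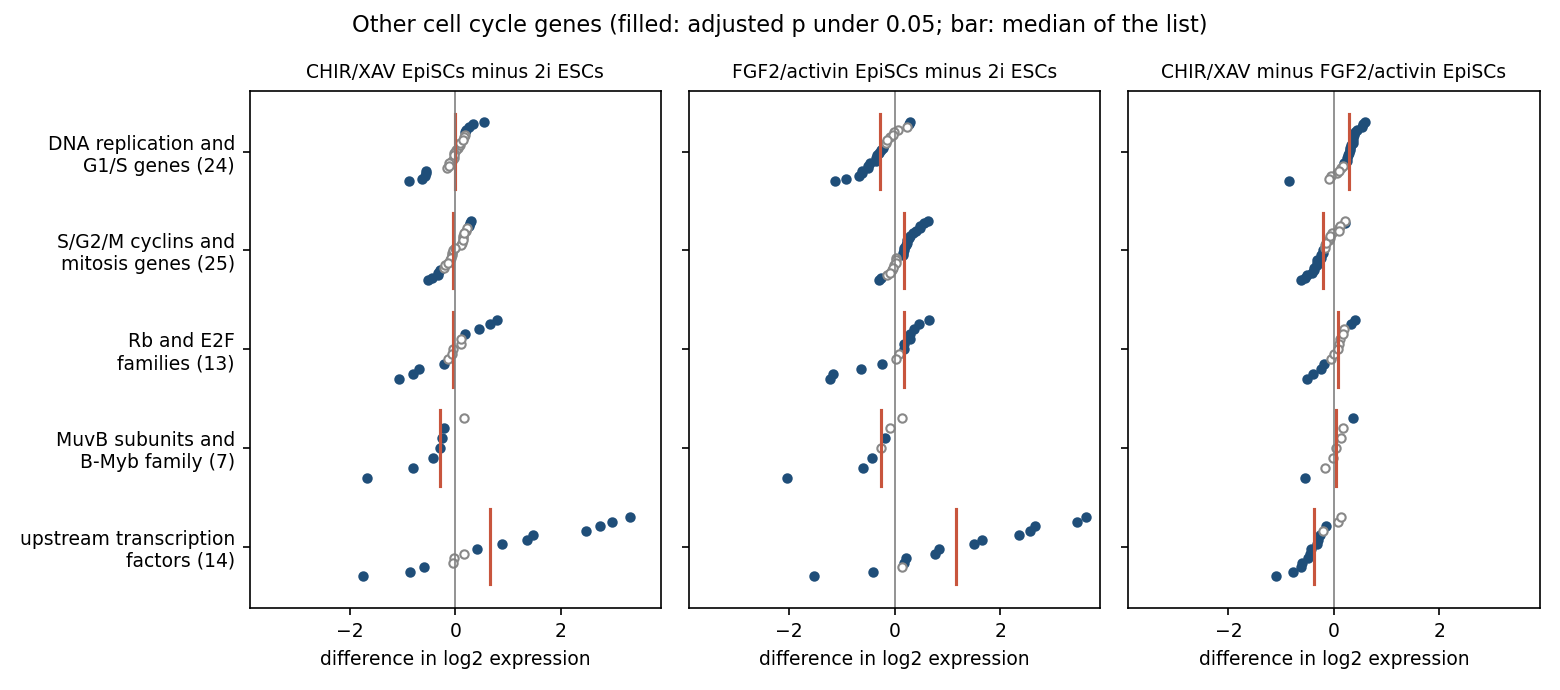
Log2 difference (log2 units) of each measured gene of 5 cell cycle lists in the comparisons of CHIR/XAV EpiSCs with 2i ESCs, FGF2/activin EpiSCs with 2i ESCs, and CHIR/XAV with FGF2/activin EpiSCs. Filled points have an adjusted p under 0.05 in limma, open points do not, and bars are list medians. In the comparison of the EpiSC cultures the G1/S list has a median of 0.29 and the S, G2 and M list of -0.20.

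In the list of other cyclins and CDKs, Cdk14 and Cdk18, kinases of the PFTAIRE and PCTAIRE families, rose in both EpiSC cultures. Cdk14 was higher by 0.84 (adjusted p = 1.83e-05) in CHIR/XAV EpiSCs and by 2.13 (adjusted p = 7.45e-10) in FGF2/activin EpiSCs, and Cdk18 by 1.06 (adjusted p = 6.67e-09) and 1.40 (adjusted p = 2.34e-10). Ccng2, a cyclin linked to cell cycle arrest, was higher by 0.46 and 0.93. Ccnt1, the cyclin of the elongation factor P-TEFb, rose by 1.08 (adjusted p = 1.76e-08) in CHIR/XAV EpiSCs and differed by -0.04 (adjusted p = 0.672) in FGF2/activin EpiSCs. It lies on chromosome 15 between Amigo2 and Atf1, where 49 other genes above the dimmest 40% had a median difference of 0.94 in CHIR/XAV and 0.02 in FGF2/activin EpiSCs, so its value is close to that of its neighbours.

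Several genes known to act on transcription of the D-type cyclins changed strongly. Of 14 measured, 8 rose and 3 fell in CHIR/XAV EpiSCs, with a median of 0.65. In FGF2/activin EpiSCs 11 rose and 2 fell, with a median of 1.17. Among genes above the dimmest 40%, 63.1% and 71.0% were called in these comparisons. Myc, a factor known to activate Ccnd2 and Cdk4 through E-boxes, was higher by 2.74 (adjusted p = 2.24e-13) in CHIR/XAV EpiSCs and by 2.66 (adjusted p = 2.25e-13) in FGF2/activin EpiSCs. Mycn, named as a relative of Myc and not for the size of its change, had differences of -0.87 (adjusted p = 1.74e-05, limma) and -0.40 (adjusted p = 0.00713). Over the same arrays Ccnd2 differed by 1.26 and 1.64 and Cdk4 by 0.05 and 0.19. Any part of Myc or Mycn in these values was not tested, and no promoter window of Ccnd2 was matched. Jun, an AP-1 subunit known to act on Ccnd1, was higher by 2.97 and 3.46, Id1, a helix-loop-helix inhibitor induced by BMP signals, by 3.30 and 3.62, and Egr1, an immediate target of ERK signalling, by 1.48 and 2.57. Between the EpiSC cultures 11 of the 14 were lower in CHIR/XAV EpiSCs. In that comparison 21.1% of all genes were lower, and 55.1% of genes above the dimmest 40% were called in either direction. Egr1 differed by -1.10 (adjusted p = 2.91e-08, limma), Jun by -0.49 (adjusted p = 0.000114) and Id1 by -0.32 (adjusted p = 0.00927). Myc differed by 0.08 (adjusted p = 0.355).

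Ccnd2 was the only member whose group means spanned at least 1 log2 unit. The genes with the most similar profile over the 9 arrays, each profile centred on its own mean, were Tagln2, Tcfl5 and Armcx2. Their root mean square differences from the Ccnd2 profile were 0.0760, 0.0764 and 0.0772 log2 units. The likeness is a description of 3 culture groups with 3 arrays each and carries no test.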

How the data were processed

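Total RNA was hybridised to Affymetrix Mouse Gene 1.0 ST arrays, the model that the probe annotation's file headers name. The deposited values are log2 intensities, 1 per probe set and array, which the authors obtained by RMA (Partek), as the submitters' processing notes have it. The sources used here give neither tool versions nor the build behind the array annotation. Array medians were 5.57 to 5.65 and arrays of a group correlated at 0.996 to 0.998. Precision is limited by having 3 arrays a group, and without detection calls, which were not used here, background and a low level look alike.

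Of 35399 probe sets, the 21789 with 1 gene symbol were kept, as 19938 genes, with the brightest probe set for the 999 genes that had several. The sample titles gave group and replicate. Differences were fitted with limma (version 3.58.1, under R 4.3.3) on all 9 arrays, two-sided, without covariates or filter, and adjusted by Benjamini-Hochberg over all genes. The fit was tested on simulated data. Alternatives were the mean of a gene's probe sets, a filter that drops the dimmest 40% of genes, eBayes with trend and robust settings, a fit on the compared groups alone, array weights, quantile normalization, median centring, a replicate block, each array left out, a treat test against 1.5-fold and, added after the data were seen, the dimmer Cdkn1b probe set.

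The members and gene lists were chosen with earlier results of these data known. All members are named, with up to 4 genes of each other list and 2 of a marker list, those with the largest called differences. Genes named outside this rule are marked or are the exceptions to a count. Protein sequences were not used here, and listed genes that lack a single-symbol probe set, Cdkn1a among them, were not analysed here.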

Additional observations from a re-analysis of the deposited data

How the results depend on the processing

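Over 18 planned settings and 1 added later, the 9 genes gave 486 differences, of which 451 kept their direction and their side of the threshold, 24 lost and 4 gained a call, and 7 changed sign. The changes of sign were all among uncalled differences near 0: Ccnd1 in CHIR/XAV EpiSCs against 2i ESCs was -0.0471 with median centring and -0.0034 after quantile normalization, Cdk4 in the same comparison was -0.0492 with median centring and between -0.0312 and 0.126 with 1 array left out, and Cdkn1b in CHIR/XAV against FGF2/activin EpiSCs was -0.0259 with median centring and between -0.0432 and 0.0267 with 1 array left out. A limma treat test against 1.5-fold, a stricter question by construction, called 1 member in CHIR/XAV EpiSCs against 2i ESCs, 2 in FGF2/activin EpiSCs against 2i ESCs (Ccnd2 and Ccne1) and 0 in CHIR/XAV against FGF2/activin EpiSCs, where 0 also had an unadjusted p under 0.05, and 2241, 2726 and 1175 of all genes in the same comparisons. With 1 array left out, members called numbered 6 to 6, 7 to 9 and 5 to 6, and all genes called 8438 to 9268, 10561 to 12416 and 6923 to 8418. Quantile normalization ended the calls of Ccne2 (-0.16, adjusted p = 0.0698) and Cdk6 (-0.17, adjusted p = 0.11) and added that of Ccnd3 (0.26, adjusted p = 0.0231) between the EpiSC cultures; the cause was not tested. Among all called genes, the share higher was 52.7% in CHIR/XAV EpiSCs against 2i ESCs and 35.0% with median centring, which moved the median of all genes by -0.101. In FGF2/activin EpiSCs against 2i ESCs it was 45.3%, with 35.0% after median centring and 59.6% without the dimmest 40% of genes. With the replicate number as a block, 6, 9 and 6 members and 9325, 12202 and 8246 of all genes were called. The added member was Cdk4 in FGF2/activin EpiSCs against 2i ESCs (0.19, adjusted p = 0.0332, limma). Deviations of same-numbered arrays correlated at -0.0705 to 0.239 and of differently numbered arrays at -0.227 to 0.178. These values show no clear pairing by number and cannot exclude one. For Cdk4, replicate 2 was highest and replicate 3 lowest in all 3 groups. With 3 arrays a group and no detection calls, small differences such as those of Cdk4 and dim levels such as that of Cdkn2c are the least certain.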
